A study of Homo sapiens with 12 samples.

Results

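The 9 genes C3, CFP, CFD, CR1, C3AR1, C5AR1, FPR1, FPR2 and CMKLR1 were described in 2 human leukemia cell lines treated with OGP46. They were taken by symbol from the 20003 genes of the deposited expression tables, and all 9 were found in each of the 12 samples. NB4 is a line from acute promyelocytic leukemia that carries the PML-RARα fusion. Kasumi-1 is a line from acute myeloid leukemia of the M2 type with the t(8;21) translocation and its AML1-ETO fusion. Each line had 3 control samples in DMSO, the solvent, and 3 samples with 1 μM OGP46, a kaurene diterpenoid made from Oridonin. The labels give 48 h of incubation for all groups, and 1 figure legend of the study gives a longer time. Each line stands for 1 patient's leukemia grown in culture without other tissue cells. The study's culture medium contained fetal bovine serum. The labels number the samples 1 to 3 in every group and do not say that they were separate cultures, while the study's text speaks of independent experiments without tying them to these samples. The p-values measure the spread between these samples, which may be technical.

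Complement is a set of proteins that cut each other in turn on the surface of microbes and damaged cells. Factor D cuts factor B bound to C3b, properdin steadies the resulting convertase, and this enzyme cuts more C3, which forms a loop of amplification known as the alternative pathway. The small fragments C3a and C5a that are released call in myeloid cells through G protein-coupled receptors. Formyl peptide receptors and the chemerin receptor act through the same kind of receptor. Neutrophils and monocytes carry most of these receptors and also make properdin and factor D, and several of them are acquired as myeloid cells mature.

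The expression unit was FPKM, fragments scaled by exon length and by the mapped total, which permits a comparison of levels between genes. The FPKM of a sample summed to 248207 to 310262, and 9339 to 9746 genes reached 1 FPKM. The sums were lower in all NB4 controls (at most 256268) than in all NB4 OGP46 samples (at least 263341). The 6 markers of myeloid identity averaged at least 1 FPKM in each of the 4 groups, and the 4 erythroid and 5 liver and stroma markers summed to at most 0.184 and 0.515 FPKM in any sample. Of the 6 lymphoid markers, CD3D was at 13.5 to 34.6 FPKM in NB4 samples, while CD3E stayed at or below 0.131 FPKM in all 12. The 5 Kasumi-1 markers (RUNX1T1, TRH, POU4F1, CD34, KIT) summed to 237 to 299 FPKM in Kasumi-1 samples and to 0.563 to 3.60 FPKM in NB4 samples, the highest being NB4 control 3.

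In the GENCODE annotation of GRCh38, 5 of the 9 genes lie on chromosome 19. C3 spans chr19:6677704-6730562 on the minus strand, CFD chr19:859643-863630 on the plus strand and C5AR1 chr19:47290023-47322066 on the plus strand. FPR2 (chr19:51752026-51770526, plus strand) lies inside the annotated span of FPR1 (chr19:51745172-51804110, minus strand). CR1 (chr1:207496147-207641765, plus strand), C3AR1 (chr12:8058302-8066471, minus strand), CMKLR1 (chr12:108288044-108339341, minus strand) and CFP (chrX:47623172-47630305, minus strand) lie elsewhere. CR1 shares 14.5% of the 31-base words in its transcripts with other genes, 8.29% with its neighbour CR1L, and C5AR1 shares 10.5%, so reads of these genes could be split with other genes. C3AR1 and CMKLR1 share none.

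For 4 of the genes (CFP, CR1, C5AR1 and CMKLR1) all NB4 OGP46 samples lay above all NB4 controls, a pattern that 32.7% of all genes tested had. These 4 have promoters in the RefSeq table for GRCh38.p14, and the 250 bases before their start sites are shown because they share this pattern. Capitals mark the letters GAGGAA, the core of an ETS or PU.1 motif, in CFP, C5AR1 and CMKLR1, and the letters TGACNNNGC, the core of the antioxidant response element, in CR1, on either strand. The windows are chrX:47629931-47630180 (minus strand), chr1:207495907-207496156 (plus strand), chr19:47309611-47309860 (plus strand) and chr12:108320643-108320892 (minus strand), in the order of the lines. The windows of CFP, C5AR1 and CMKLR1 lie inside the GENCODE spans given above, so their RefSeq start sites are not the outermost ones.
CFP: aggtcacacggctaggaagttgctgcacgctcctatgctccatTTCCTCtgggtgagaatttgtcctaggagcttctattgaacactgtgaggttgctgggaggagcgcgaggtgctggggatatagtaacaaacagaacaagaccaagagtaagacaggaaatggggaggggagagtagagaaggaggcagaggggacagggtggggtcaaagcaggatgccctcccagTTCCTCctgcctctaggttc
CR1: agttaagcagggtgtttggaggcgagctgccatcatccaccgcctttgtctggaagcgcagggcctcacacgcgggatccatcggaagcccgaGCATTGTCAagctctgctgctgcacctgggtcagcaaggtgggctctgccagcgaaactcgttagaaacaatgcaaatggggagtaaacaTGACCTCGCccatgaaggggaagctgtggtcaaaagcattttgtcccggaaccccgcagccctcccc
C5AR1: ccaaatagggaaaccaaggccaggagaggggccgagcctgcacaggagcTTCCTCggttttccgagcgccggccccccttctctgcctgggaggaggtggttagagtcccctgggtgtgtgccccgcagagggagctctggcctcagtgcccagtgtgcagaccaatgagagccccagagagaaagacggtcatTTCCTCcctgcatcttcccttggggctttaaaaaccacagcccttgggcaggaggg
CMKLR1: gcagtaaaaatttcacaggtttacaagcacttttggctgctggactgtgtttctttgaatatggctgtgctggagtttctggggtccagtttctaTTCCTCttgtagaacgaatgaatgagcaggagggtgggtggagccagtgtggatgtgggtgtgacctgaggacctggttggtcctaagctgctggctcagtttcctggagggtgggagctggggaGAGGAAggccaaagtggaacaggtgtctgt
Windows of 300 bases, from 250 before to 50 after the start, were searched for 8 of the 9 genes, with 2 windows each for CFP and FPR2. GAGGAA was found in CFP, C5AR1 and CMKLR1 and in 27.9% of all 35116 promoters. Each of the 3 genes held it at more than 1 place, in C5AR1 at bases -201 to -196 and -56 to -51 from the start site. The second CFP window held none of the searched letters and is not shown. TGACNNNGC was found in CR1 alone among the 8 genes and in 13.3% of all promoters. TTNNGNAA, the core of a C/EBP motif, was found in C3AR1, FPR1 and FPR2 and in 36.8% of all promoters. These matches describe letters in the windows and are not evidence of binding.

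In NB4 cells the change with OGP46 on the log2(FPKM + 0.1) scale was largest for C5AR1 and CMKLR1, followed by CR1, CFP, C3 and C3AR1, while CFD was slightly lower and FPR2 had no common direction. Within a line, genes whose 6 values averaged 0.1 FPKM or more were tested by limma on log2(FPKM + 0.1). A gene passed when its change was 0.58 or more on the log2 scale and its p, adjusted by Benjamini-Hochberg over all genes, was under 0.05. In NB4, 8 of the 9 genes were tested and 2 passed as higher, CFP and C5AR1, where 1.45% of the 11750 genes tested passed as higher. None passed as lower, where 0.111% of all genes did. Across genes, a control and an OGP46 sample with the same number strayed from their group means in the same direction, so a second fit paired them by number. With this pairing 6 of the 8 genes passed as higher (C3, CFP, CR1, C3AR1, C5AR1 and CMKLR1), where 5.06% of all genes did, and none as lower, where 1.15% did. In bulk RNA, fewer cells that express a gene and less RNA per cell cannot be told apart. The median log2 fold change was 0.78 over the 8 genes and 0.18 over all genes tested. An exact permutation test of 3 against 3 samples cannot go below a two-sided p of 0.1, so none was used for single genes.

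**Figure D1:**
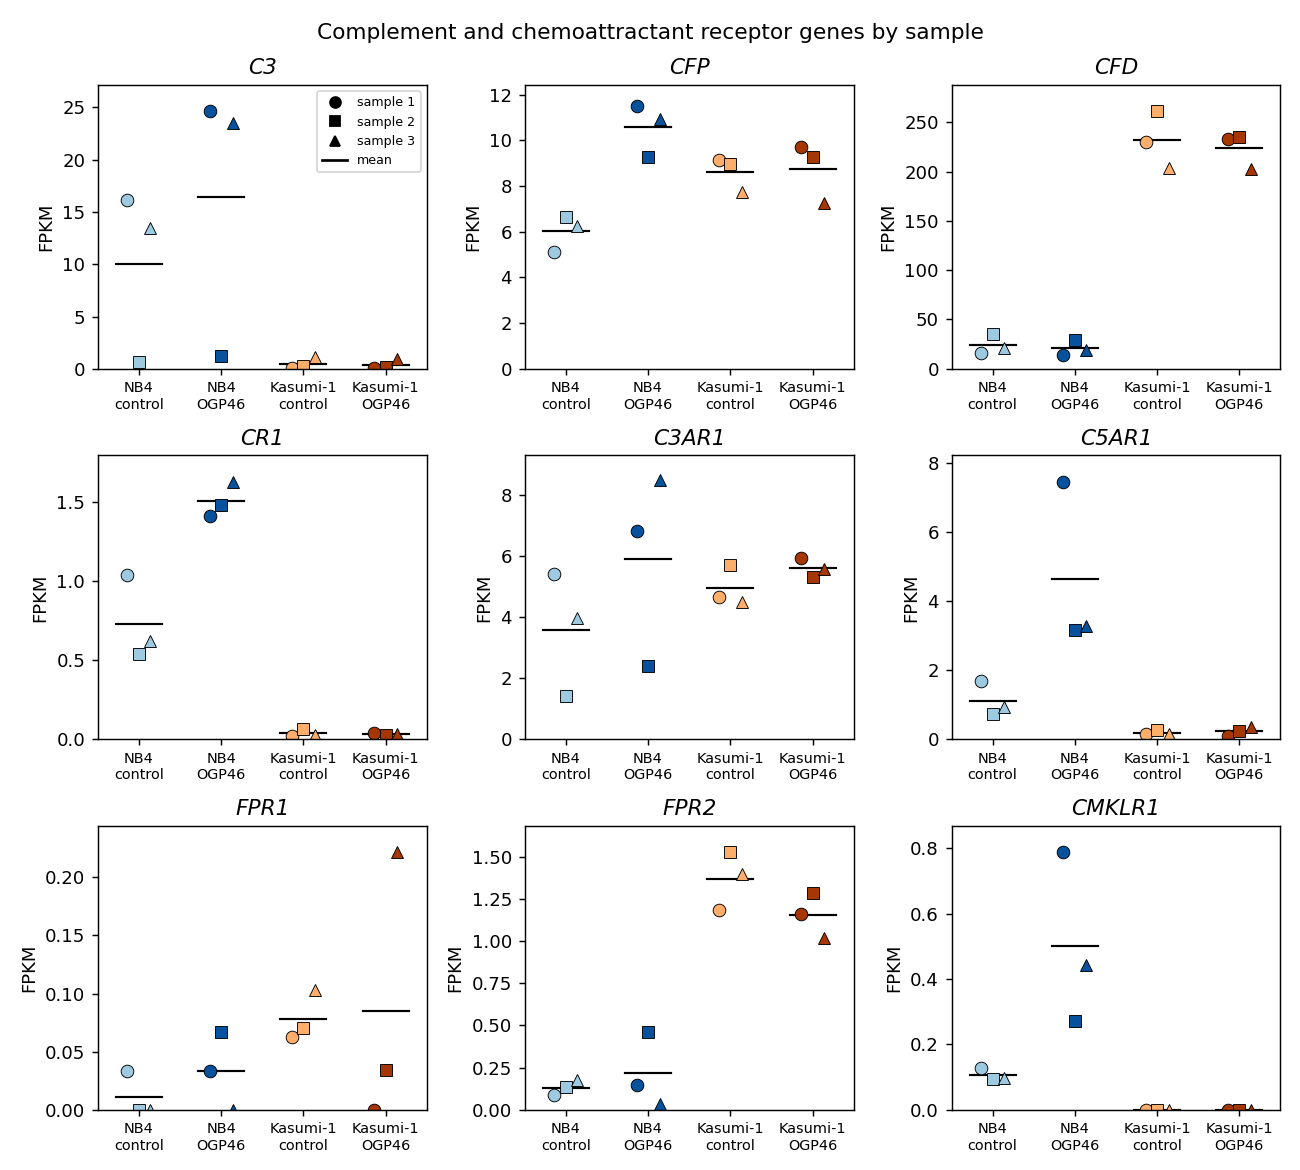
FPKM (linear axis from 0) of the 9 genes, 1 panel per gene, with 1 symbol per sample whose shape gives the sample number and a line for the mean of 3. C5AR1, CMKLR1, CR1 and CFP lie higher in all NB4 OGP46 samples than in all NB4 controls, CFD is at 203 FPKM and above in Kasumi-1, and the NB4 samples numbered 2 are low for C3.

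C3 is the central component of complement, whose cleavage gives C3a and C3b. In NB4 controls it was measured at 16.1, 0.622 and 13.4 FPKM in samples 1, 2 and 3, and in NB4 with OGP46 at 24.6, 1.22 and 23.5 FPKM. Both samples numbered 2 were far below the other 4, and the groups overlapped. Within each same-numbered pair the OGP46 sample was higher, by 1.53-, 1.96- and 1.75-fold. The log2 fold change was 0.76 with an SE of 1.41 and an adjusted p of 0.731 without pairing in limma, and with pairing the SE was 0.10 and the adjusted p 4.6e-04. Without NB4 control 2 the unpaired value turned to -0.69, and without OGP46 sample 2 it was 2.16, so 1 library decided its direction. In Kasumi-1 C3 was measured at 0.0529, 0.300 and 1.08 FPKM in controls and at 0.0625, 0.138 and 0.932 FPKM with OGP46. The 2 groups overlapped throughout, and the log2 fold change of -0.28 did not pass (SE 0.78, adjusted p 0.890 in limma).

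The NB4 pair numbered 2 stood apart in C3 more than in nearly any other gene. Of 9913 genes that reached 1 FPKM in an NB4 sample, C3 had the second widest gap between both samples numbered 2 and the lowest of the other 4, at 10.3-fold, all such gaps being taken on FPKM + 0.1. In this pair 8 genes lay at least 4-fold below the other samples, namely NAV3, C3, the chemokines CCL4, CCL3 and CXCL10, DCANP1, the NF-kappaB inhibitor TNFAIP3 and TIFAB. GTPBP6 alone lay at least 4-fold above them, and for the pairs numbered 1 and 3 there was no gene with such a gap on either side. The genes whose level followed C3 most closely over the 6 NB4 samples were ZC3H12A, MSC and TNFAIP3, with Pearson r of 0.999, 0.995 and 0.994 on log2(FPKM + 0.1), values that rest on the same pair. In Kasumi-1 C3 had the widest gap above the rest of all 9999 genes in the pair numbered 3 (2.58-fold), where LGALS3BP, IRF8 and CSF1R came next. The difference between sample numbers in C3 was larger than the difference between OGP46 and control in both lines, and what the numbers stand for was not given by the labels.

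**Figure D2:**
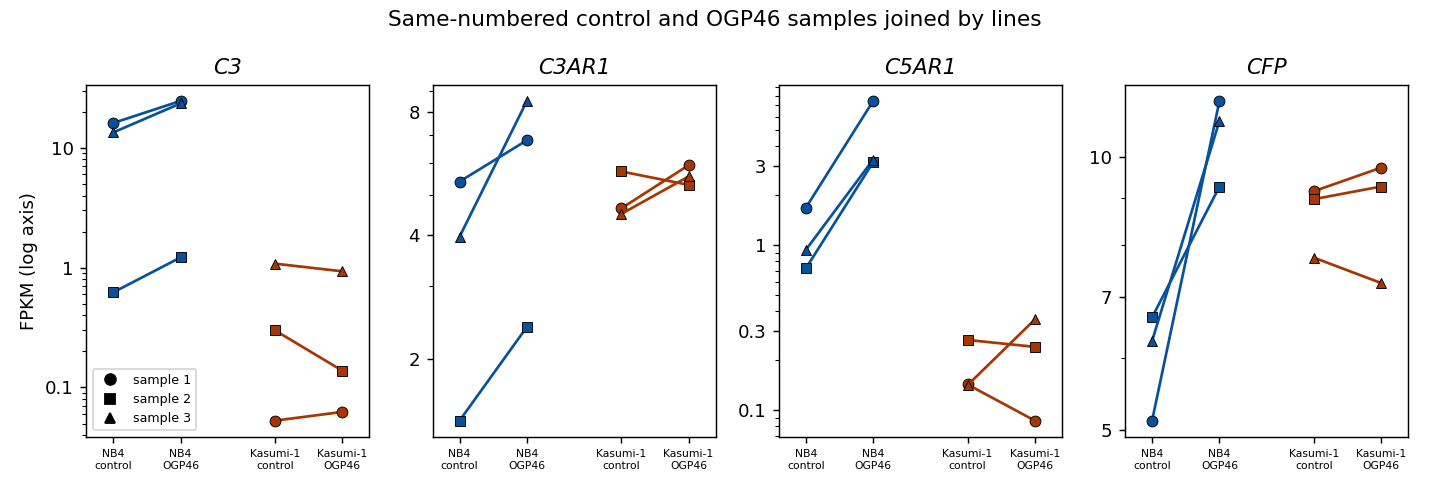
FPKM on a log axis of C3, C3AR1, C5AR1 and CFP, with lines that join the same-numbered control and OGP46 samples of each line. All 12 NB4 lines rise, while the NB4 samples numbered 2 lie 10.3-fold below the rest for C3 and 1.63-fold for C3AR1 (on FPKM + 0.1), and the Kasumi-1 lines have no common direction in C3, C3AR1, C5AR1 or CFP.

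CFP encodes properdin, the stabiliser of the alternative pathway convertase. It was measured at 5.12, 6.66 and 6.27 FPKM in NB4 controls and at 11.5, 9.27 and 10.9 FPKM in NB4 with OGP46. All OGP46 samples were above all controls. CFP rose by 0.81 on the log2 scale (SE 0.13, adjusted p = 0.0335 in limma, 0.00118 with pairing). The pairs gave 2.25-, 1.39- and 1.75-fold. In Kasumi-1 CFP was measured at 9.16, 8.98 and 7.74 FPKM in controls and at 9.72, 9.27 and 7.26 FPKM with OGP46. These values overlapped, and the log2 fold change was 0.013 (SE 0.11, adjusted p 0.968 in limma). Over the 4 groups the level was highest in NB4 with OGP46 and lowest in NB4 controls, and the ranges of neighbours in that order overlapped except between Kasumi-1 controls and NB4 controls.

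CFD encodes factor D, the serine protease that cuts factor B. In Kasumi-1 it was the most abundant of the 9 genes, at 230, 262 and 204 FPKM in controls, a mean level above 99.2% of all genes. With OGP46 it was measured at 234, 236 and 203 FPKM. These ranges overlapped, and the log2 fold change was -0.045 (SE 0.10, adjusted p 0.858 in limma). In NB4 it was measured at 15.7, 35.0 and 21.1 FPKM in controls and at 14.2, 29.2 and 18.8 FPKM with OGP46. The OGP46 sample was lower in each pair, by ratios of 0.904, 0.834 and 0.895, yet the groups overlapped and the log2 fold change of -0.19 did not pass (SE 0.32, adjusted p 0.710, 0.117 with pairing, limma). CFD was the single one of the 8 tested genes that was lower in all 3 NB4 pairs, a pattern that 6.32% of all genes had.

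CFD sits 3.395 kb downstream of ELANE, at the end of a row of protease genes of the primary granules that starts with AZU1 and PRTN3. AZU1, PRTN3 and ELANE (azurocidin, proteinase 3 and neutrophil elastase) averaged 983, 3047 and 1505 FPKM in Kasumi-1 controls and 62.1, 285 and 6.09 FPKM in NB4 controls. Among these 5 neighbours of CFD, which include MED16 and R3HDM4, none passed in NB4 without pairing, and with pairing AZU1 (-0.62, adjusted p 6.4e-04), PRTN3 (-1.36, adjusted p 1.4e-05) and ELANE (-2.17, adjusted p 0.00234) fell. In Kasumi-1 none of the 5 passed in either fit. ELANE varied among NB4 samples, at 0.504, 3.30 and 14.5 FPKM in controls and at 0.321, 0.430 and 1.39 FPKM with OGP46. NB4 control 3 also held 4 of the 5 Kasumi-1 markers at 0.548% to 1.35% of their mean level in Kasumi-1 controls. POU4F1, the fifth, was at 5.29% or more in all 6 NB4 samples. The median share in NB4 control 3 was 0.950%, and this share of the Kasumi-1 level is 2.20 FPKM for CFD, against 21.1 FPKM measured there, 9.33 of 57.6 FPKM for AZU1 and 28.9 of 259 FPKM for PRTN3. For ELANE it is 14.3 FPKM, nearly the whole of the 14.5 FPKM measured. In NB4 controls 1 and 2 the same calculation gives 0.929 and 5.57 FPKM of ELANE, above the measured levels. ELANE and the Kasumi-1 markers had the same order in the 3 NB4 controls, and the part of these markers in the ELANE value was not tested. Without the NB4 pair numbered 3, an alternative chosen after seeing the data, the paired values were -0.69 for AZU1, -1.40 for PRTN3 and -1.60 for ELANE. Only pairs 1 and 2 remain in that fit, and they differ widely for ELANE, so no p is given for it.

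**Figure D3:**
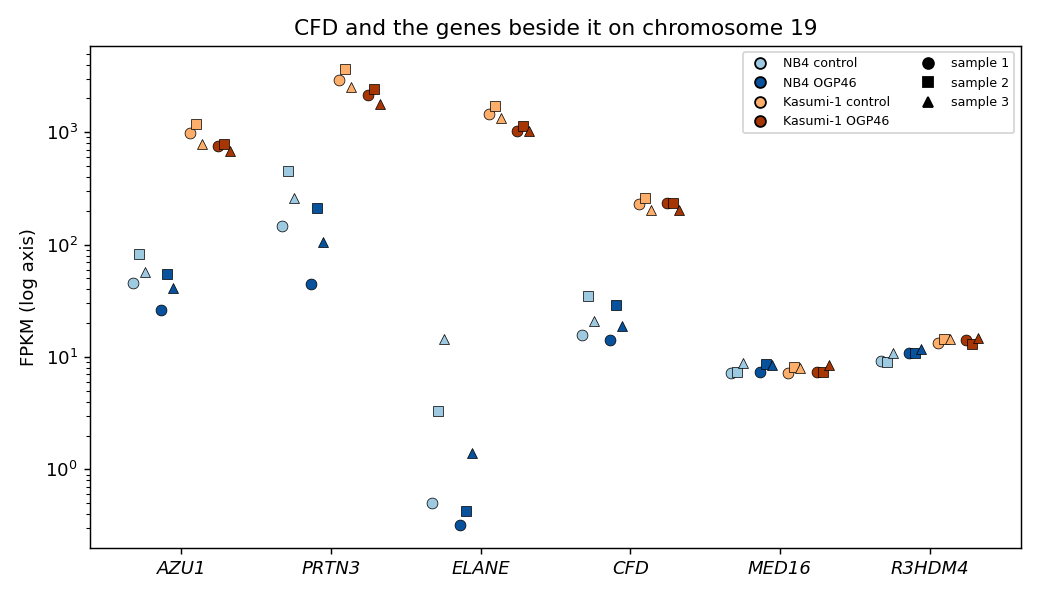
FPKM on a log axis of CFD and the 5 genes beside it on chromosome 19 in their annotated order, with colours for the 4 groups and shapes for the sample numbers. AZU1, PRTN3, ELANE and CFD are higher in all Kasumi-1 samples than in all NB4 samples, while MED16 and R3HDM4 lie close together across the 4 groups.

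CR1 encodes complement receptor 1, which binds C3b and C4b and helps to break down convertases. In NB4 it was measured at 1.03, 0.538 and 0.619 FPKM in controls and at 1.41, 1.48 and 1.63 FPKM with OGP46. The groups did not overlap, and the pairs gave 1.36-, 2.75- and 2.62-fold. The log2 fold change of 0.99 (SE 0.22) missed the threshold without pairing (adjusted p 0.0586, limma) and passed it with pairing (adjusted p 0.00376). In all Kasumi-1 samples CR1 was at or below 0.0634 FPKM, under the filter, and was not tested there.

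C3AR1 and C5AR1 encode the receptors of the anaphylatoxins C3a and C5a. On the log2(FPKM + 0.1) scale C5AR1 had the largest change in NB4 of the 8 tested among the 9 genes. The ratio of means was larger for CMKLR1 (4.67, against 4.18 for C5AR1). C5AR1 was measured at 1.68, 0.722 and 0.934 FPKM in NB4 controls and at 7.46, 3.18 and 3.30 FPKM in NB4 with OGP46. All OGP46 samples were above all controls, with ratios of 4.44, 4.40 and 3.53 within pairs. C5AR1 rose by 1.93 on the log2 scale (SE 0.37, adjusted p = 0.0432 in limma, 3.6e-06 with pairing). The highest control and the highest OGP46 sample were both numbered 1.

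Without pairing, the calls of C5AR1 and CFP were lost when any sample other than OGP46 sample 2 was left out. In each of those fits at most 1 of all genes passed as higher and at most 1 as lower. The loss is thus not particular to C5AR1 and CFP. Without OGP46 sample 2, 368 of all genes passed as higher and 28 as lower. Without NB4 controls 1, 2 and 3 in turn the adjusted p in limma was 0.0512, 0.0924 and 0.172 for C5AR1 and 0.0571, 0.0584 and 0.134 for CFP. Without OGP46 samples 1 and 3 it was 0.0879 and 0.123 for C5AR1 and 0.0879 and 0.122 for CFP. The fold changes stayed between 1.54 and 2.25 for C5AR1 and between 0.70 and 0.90 for CFP.

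In Kasumi-1 C5AR1 was measured at 0.143, 0.266 and 0.142 FPKM in controls and at 0.0863, 0.242 and 0.354 FPKM with OGP46. All of these values were below the lowest NB4 sample, the groups overlapped, and the log2 fold change was 0.14 (SE 0.35, adjusted p 0.873 in limma). C5AR2, the second C5a receptor, starts 10.08 kb beyond the end of C5AR1. It averaged 0.368 FPKM in NB4 controls and 0.669 FPKM with OGP46, and this difference of 0.64 on the log2 scale passed with pairing only (adjusted p 0.0481, and 0.231 without, limma).

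C3AR1 was measured at 5.40, 1.41 and 3.96 FPKM in NB4 controls and at 6.81, 2.39 and 8.50 FPKM with OGP46. As for C3, the samples numbered 2 were the lowest of their groups, 1.63-fold below the rest, and the groups overlapped. The pairs gave 1.26-, 1.69- and 2.14-fold, and the log2 fold change of 0.71 (SE 0.55) did not pass without pairing (adjusted p 0.404, limma) and passed with it (adjusted p 0.00402). Leaving out 1 sample moved the unpaired value to between 0.16, without control 2, and 1.25, without OGP46 sample 2, with 1.09 without control 1 and 0.36 without OGP46 sample 3. In Kasumi-1 C3AR1 was measured at 4.65, 5.72 and 4.51 FPKM in controls and at 5.92, 5.30 and 5.56 FPKM with OGP46. These ranges overlapped, with a log2 fold change of 0.18 (SE 0.10, adjusted p 0.421 in limma). All 4 group means of C3AR1, 3.59 to 5.90 FPKM, had overlapping ranges with their neighbours.

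FPR1 and FPR2 encode receptors for formylated peptides from bacteria and mitochondria, and FPR2 also binds serum amyloid A and annexin A1. FPR1 was at or below 0.222 FPKM in all 12 samples, under the filter in both lines, and was not tested. FPR2 was measured at 0.0849, 0.134 and 0.176 FPKM in NB4 controls and at 0.149, 0.460 and 0.0361 FPKM with OGP46. The OGP46 samples lay on both sides of the controls, and the log2 fold change was 0.22 (SE 0.48, adjusted p 0.770 in limma). In Kasumi-1 it was measured at 1.18, 1.53 and 1.40 FPKM in controls and at 1.16, 1.29 and 1.02 FPKM with OGP46. The OGP46 sample was lower in each Kasumi-1 pair, as for 13.8% of all genes, but the groups overlapped and the log2 fold change of -0.23 did not pass (SE 0.14, adjusted p 0.456, 0.285 with pairing, limma).

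CMKLR1 encodes the receptor of chemerin, a chemoattractant for macrophages and dendritic cells. It was measured at 0.129, 0.0955 and 0.0977 FPKM in NB4 controls and at 0.788, 0.273 and 0.444 FPKM with OGP46. These low levels did not overlap between the groups, and the OGP46 sample was 6.12-, 2.86- and 4.55-fold higher within pairs. The log2 fold change of 1.45 (SE 0.33), which the added 0.1 FPKM makes smaller than these ratios, missed the threshold without pairing (adjusted p 0.0592, limma) and passed with it (adjusted p 0.00318). With pseudocounts of 1 and 0.01 it was 0.43 and 2.01. CMKLR1 was listed at 0 in all 6 Kasumi-1 samples.

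**Figure D4:**
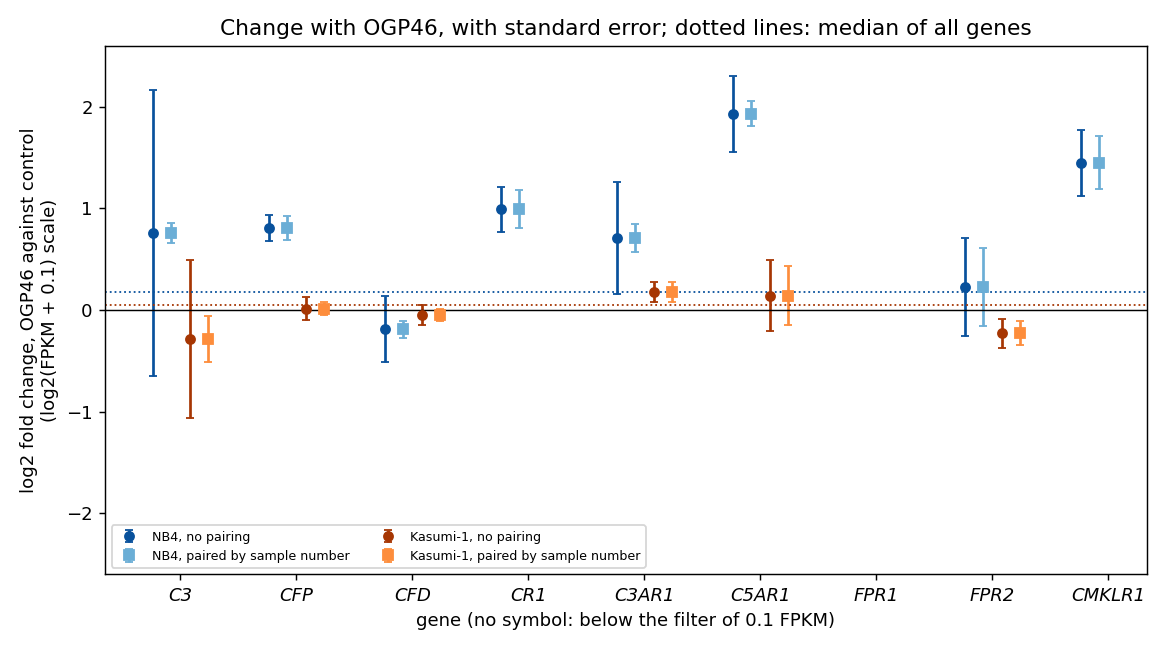
Log2 fold change of OGP46 against control on the log2(FPKM + 0.1) scale for each gene tested, with bars for the standard error, circles without and squares with pairing by sample number, and dotted lines for the median of all genes (0.18 in NB4, 0.046 in Kasumi-1). The pairing leaves the values as they are and shrinks the error of C3 in NB4 from 1.41 to 0.10, and in Kasumi-1 the 6 genes tested lie between -0.28 and 0.18.

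The scaling of the samples bears on these counts, because the median of all genes rose by 0.18 in NB4. With each sample centred on its median the shift over all genes was -0.042. The genes that passed as higher with pairing then numbered 4 (CFP, CR1, C5AR1 and CMKLR1), where 1.6% of all genes did, and of all genes that passed 48.1% were higher, against 81.5% without centring and 92.9% without pairing. C3 and C3AR1 kept an adjusted p of 0.00601 and 0.0279 in limma but fell below the minimum fold, at 0.54 and 0.49. Without pairing 0 of the 8 and 0 of all 11750 genes passed after centring in limma, so that count says nothing of these genes.

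Whether OGP46 samples lay above controls was also counted without a model. In NB4 all OGP46 samples were above all controls for 4 of the 8 tested genes, against 32.7% of the 11750 genes, and for none were they all below, against 1.91%. They were higher in all 3 pairs for 6 of the 8, against 52.9%. In Kasumi-1 none of the 6 tested genes had groups that did not overlap, where 17.4% of the 11835 genes had all OGP46 samples above and 5.23% below all controls, and none was higher in all 3 pairs, where 31.7% were. None of the 6 passed in limma, with or without pairing, where 0.0169% of all genes passed as higher and as many as lower, or 0.27% and 0.346% with pairing. At an unadjusted p below 0.05 with the same minimum fold, none of the 6 was called, against 0.642% of all genes higher and 0.566% lower. Their median log2 fold change was -0.016, against 0.046 for all genes.

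The response to OGP46 was then compared between the lines by the interaction of line and treatment in a limma fit of all 12 samples, over 12309 genes. Without pairing 0 of the 8 genes tested and 0% of all genes passed at an adjusted p below 0.05 in either direction. At an unadjusted p below 0.05, CFP, CR1, C5AR1 and CMKLR1 changed more in NB4, where 9.95% of all genes did, and none changed less, where 0.999% did. CMKLR1 was listed at 0 in Kasumi-1, so its value repeats the NB4 change and is no test of a difference between responses. CR1 lay below the added 0.1 FPKM in all Kasumi-1 samples and entered this fit through its NB4 level. Its value of 1.02 nearly repeats its NB4 change of 0.99 and is no such test either. With pairing 4 of the 8, CMKLR1 included, passed with a larger change in NB4, where 1.81% of all genes did, and none with a smaller one, where 0.114% did. The other 3 were C5AR1, by 1.79 on the log2 scale (SE 0.31, adjusted p 0.0241), C3 by 1.04 (SE 0.21, adjusted p 0.0418) and CFP by 0.79 (SE 0.16, adjusted p 0.0378). The C5AR1 value is close to its NB4 change of 1.93. In Kasumi-1 C5AR1 was at 0.0863 to 0.354 FPKM and C3 at 0.0529 to 1.08 FPKM. Near the added 0.1 FPKM the log2 scale shrinks a change, so a response there could go unseen. None of C5AR1, C3 and CFP passed with pairing once samples were centred on the median or scaled to a common sum. With pairing but without the NB4 pair numbered 2, CFP alone passed (0.96, adjusted p 0.0278 in limma).

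The controls of both lines were compared next. Of the 7 genes tested between NB4 and Kasumi-1 controls, 3 were higher in NB4, where 22.7% of the 12302 genes were, and 2 were lower, where 29.7% were. C5AR1 was higher in NB4 by 2.05 on the log2 scale (SE 0.30, adjusted p 2.34e-04 in limma) and C3 by 3.70 (SE 1.15, adjusted p 0.0163). The third was CR1, at 2.57 (SE 0.26). CR1 lay below the added 0.1 FPKM in all Kasumi-1 controls and entered this fit through its NB4 level, so its p is not given. With pseudocounts of 1 and 0.01 the value was 0.73 and 4.04 for CR1 and 0.81 and 2.50 for C5AR1, and C5AR1 passed with both. CFD was lower in NB4 at -3.34 (SE 0.25, adjusted p 2.79e-06 in limma) and FPR2 at -2.68 (SE 0.20, adjusted p 2.79e-06), or -1.06 and -3.33 with those pseudocounts. CFP at -0.52 (adjusted p 0.00341 in limma) did not reach the minimum fold, and C3AR1 at -0.64 did not pass (adjusted p 0.175). The call of C3 was lost in limma without NB4 control 1 or 3 (adjusted p 0.0634 and 0.0671) and without Kasumi-1 control 1 or 2 (0.0682 and 0.0512), and with no filter on low values (0.131). C3AR1 passed as lower without NB4 control 1 (-1.02, adjusted p 0.0343), and CFP did without NB4 control 2 (-0.59, adjusted p 0.00199) and without Kasumi-1 control 3 (-0.59, adjusted p 0.00462).

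The order of the 4 groups summarises the patterns. NB4 with OGP46 had the highest mean for C3, CFP, CR1, C3AR1, C5AR1 and CMKLR1, and a Kasumi-1 group had the highest for CFD, FPR1 and FPR2. For CR1, C5AR1 and CMKLR1 the ranges separated NB4 with OGP46, NB4 controls and Kasumi-1, while the 2 Kasumi-1 groups overlapped. For CFD and FPR2 the only gap in the order lay between the lines. For C3, C3AR1 and FPR1 no neighbours in the order were separate. How many of all genes had such orders was not counted. Each step is common, as 32.7% of all genes had all NB4 OGP46 samples above all NB4 controls. Between the controls of the lines 22.7% passed as higher in NB4 and 29.7% as lower. In Kasumi-1 CR1 and CMKLR1 lay below 0.1 FPKM in all samples.

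The rest of the pathway was read from lists of related genes, where 1.45% of all genes passed as higher in NB4 without pairing and 5.06% with it. Of 23 other complement components only 3 were tested in NB4, and most were under the filter. FCN1, the ficolin-1 of myeloid cells that starts the lectin pathway, rose from a mean of 1.54 to 3.96 FPKM (log2 fold change 1.33, adjusted p 0.0278 in limma). C1RL passed with pairing only (0.73, adjusted p 0.0130 in limma), and C5 averaged 0.169 FPKM in NB4 controls against 1.34 FPKM in Kasumi-1 controls. Of 19 complement regulators and other complement receptors, 10 were tested in NB4. ITGAM and ITGAX, the alpha chains of complement receptors 3 and 4, rose by 1.08 and 1.11 on the log2 scale (adjusted p 0.0233 and 0.0335 in limma), from means of 2.74 and 0.665 FPKM. None of the 10 passed as lower, C5AR2 also passed as higher with pairing, and the median of the 10 was 0.44 against 0.18 for all genes. CD46, which protects cells from C3b, was among the 3 most abundant of this list, at 26.6 FPKM in NB4 controls and 34.1 FPKM with OGP46, and did not pass. VSIG4, a receptor for C3b on macrophages, averaged 24.4 FPKM in Kasumi-1 controls and 0.167 FPKM in NB4 controls, the widest difference between the lines in this list (log2 -6.71, adjusted p 5.23e-07 in limma).

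Of 17 other chemoattractant receptors, 14 were tested in NB4. CCR1, a chemokine receptor of monocytes, rose from 3.34 to 6.61 FPKM (0.97, adjusted p 0.0383 in limma). With pairing GPR84 (0.76, adjusted p 0.00106) and PTAFR, the receptor of platelet-activating factor (0.69, adjusted p 8.67e-04), passed as higher with CCR1 and CCRL2. CCR2, the receptor of CCL2, passed as lower (-0.85, adjusted p 0.00140) with pairing. CXCR4 had the highest level of the list, at 33.2 FPKM in NB4 controls and 29.5 FPKM with OGP46, and did not pass. The median of the 14 was 0.17, against 0.18 for all genes.

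Of 6 genes for ligands of the receptors, 3 were tested in NB4 and 0 passed in limma with or without pairing. ANXA1, a ligand of FPR2, averaged 24.7 FPKM in NB4 controls and 34.6 FPKM with OGP46, with 1.56 FPKM in Kasumi-1 controls (NB4 log2 fold change 0.49, below the minimum, with an adjusted p of 0.0825, or 0.00256 with pairing, in limma). HEBP1, the source of another FPR2 ligand, averaged 10.3 FPKM in NB4 controls and 15.8 FPKM in Kasumi-1 controls. RARRES2, which encodes chemerin, and SAA1 were listed at 0 in all 12 samples. All 19 genes of receptor signalling were tested in NB4, where 2 passed as higher without pairing (GNG2 at 0.69, adjusted p 0.0462, and PREX1 at 0.62, adjusted p 0.0299, in limma) and 5 with it, PLCB2, RGS18 and PIK3R5 among them, with a median of 0.33. With pairing and median centring 0 of the 19 passed. In Kasumi-1 none of the genes of these 5 lists passed in either fit without centring. The 5 complement components tested there had a median of 0.45, against 0.046 for all genes. With pairing and median centring 1 of these 5 components passed as higher in Kasumi-1, where 26 of all 11835 genes did.

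**Figure D5:**
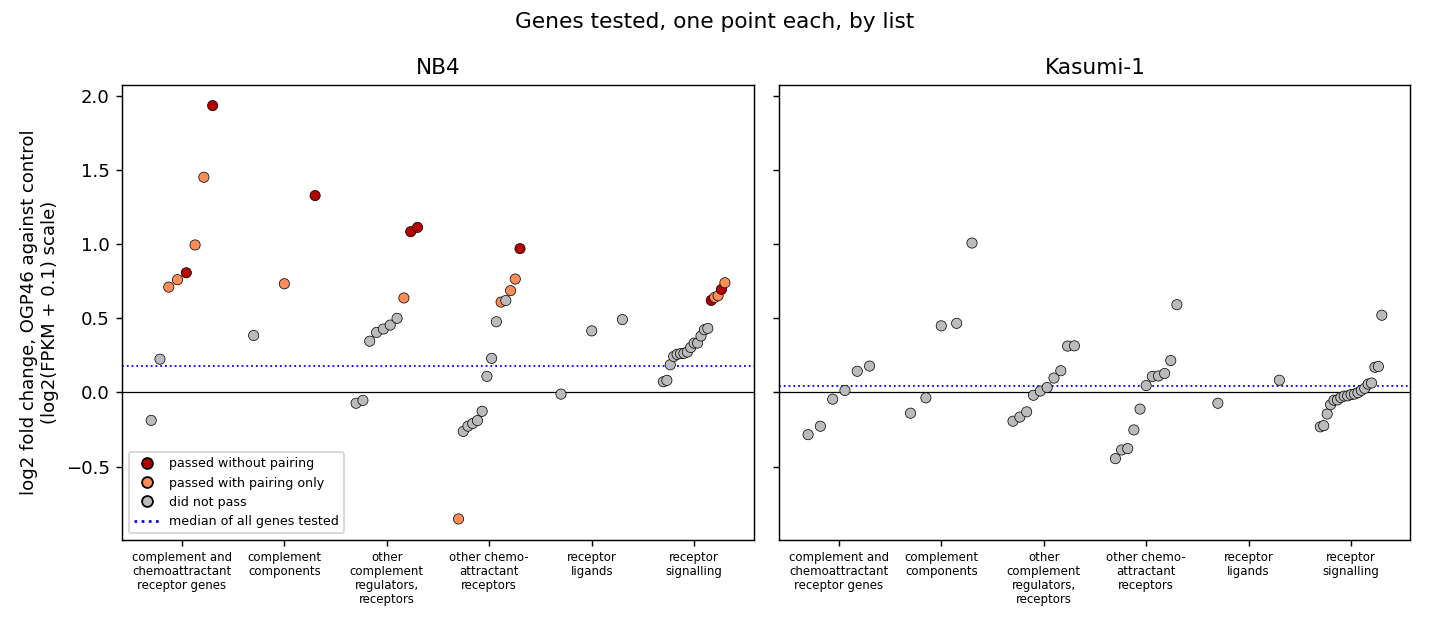
Log2 fold change of OGP46 against control for each gene tested, sorted within 6 lists, in NB4 (left) and Kasumi-1 (right), coloured by whether it passed, with a dotted line at the median of all genes. In NB4 the 8 complement and chemoattractant receptor genes have a median of 0.78 and the 14 other chemoattractant receptors one of 0.17, and in Kasumi-1 no point passed.

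Markers of mature myeloid cells also changed in NB4. Of 13, all tested in NB4, CD68 (0.62, adjusted p 0.0399) and NCF1 (1.30, adjusted p 0.0364) passed as higher in limma and 7 passed with pairing, with a median of 0.60, where 1.45% and 5.06% of all genes passed. With pairing and median centring 4 of the 13 passed. Their summed FPKM was 420 to 548 in NB4 controls and 451 to 592 with OGP46, ranges that overlap. With pairing in limma, NB4 cells with OGP46 had more CD14 (1.67, adjusted p 4.94e-04), S100A9 (1.14, adjusted p 3.83e-05) and S100A8 (0.83, adjusted p 0.00215). CD14 was low, with means of 0.147 FPKM in NB4 controls and 0.708 FPKM with OGP46, and the S100A9 groups overlapped. LYZ, the most abundant of the 13 over all samples, averaged 318 FPKM in NB4 controls and 314 FPKM with OGP46. In Kasumi-1 11 of the 13 were tested and NCF1 alone passed, with pairing (0.79, adjusted p 0.0315 in limma). The part of such markers in the changes of the 9 genes was not tested.

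The genes most like each of the 9 over the 6 samples of a line are given as a description, among the 9513 genes in NB4 and 9714 in Kasumi-1 that averaged 1 FPKM or more. In NB4 C5AR1 ran with FGD3 (Pearson r 0.996), NRM and PSMC4, CFP with AP4M1 (0.994), NPC2 and GPR137, and CR1 with CHM (0.998), SPC25 and FAM174A. C3AR1 ran with TXNIP (0.9995), TRIM36 and MBNL2, and CFD with ABHD14A (0.999), TMEM177 and SERPINB1. In Kasumi-1 CFD ran with AARS (0.997), SRPX and SERPINH1, CFP with FOXC1 (0.990), C3AR1 with LRFN3 (0.998) and FPR2 with HMGN5 (0.993). The 6 points share libraries, and none of the 9 genes was in another's list. Each named gene was picked for its high r among all genes compared, so the r values are no test of a link.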

How the data were processed

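Poly(A) mRNA of 12 cell line samples was sequenced by the authors with a stranded kit, and 1 FPKM value per gene symbol and sample was deposited. The submitters' processing notes name Trimmomatic, HISAT2, Cufflinks, HTSeq and hg38, without versions or roles. Whether counting used strand is not given in the sources used here. Of the deposited FPKM values, 632 lay above 0 and below 1e-04, so fragments were shared out by an estimate, and overlapping genes such as FPR1 and FPR2 are uncertain. The depth is unknown, so no counting interval or floor is given. The 27 symbols turned into dates were left out of the 20030.

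Values were compared as log2(FPKM + 0.1) with limma 3.58.1 in R 4.3.3 (trended empirical Bayes moderation), which was tested on simulated data. Groups follow the labels. All adjusted p-values (Benjamini-Hochberg) cover every gene tested. The fit without pairing was the main one. Same-numbered samples correlated in their deviations from the group means at 0.355, 0.622 and 0.197 in NB4 and 0.218, 0.157 and 0.396 in Kasumi-1, so the numbers were taken to pair them within a line. They did not pair the lines (-0.05 to 0.02 among controls). Pseudocounts, filters, scalings, one joint fit and left-out samples were tried as alternatives.

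The 9 genes and the gene lists were chosen with earlier results of these data known. All 9 are given. Of each other list the text names up to 4 genes with the largest change among those that passed and the 3 with the highest mean, or some of these. CD3D, CD3E, RARRES2, SAA1, MED16, R3HDM4 and genes apart in 1 sample number were named after their values were seen. CD68, CCRL2 and POU4F1 were also named outside this rule. Positions come from GENCODE on GRCh38 and promoters from RefSeq.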

Additional observations from a re-analysis of the deposited data

Results flagged for a closer look

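The difference of the OGP46 response between the lines was flagged for 3 of the 9 genes, because the interaction of line and treatment passed in limma with pairing by sample number. The log2 fold change in NB4 minus that in Kasumi-1 was 1.79 for C5AR1, 1.04 for C3 and 0.79 for CFP. In NB4 all 3 pairs were higher with OGP46 for each of these genes, and in Kasumi-1 the pairs went both ways. Kasumi-1 levels were 0.0863 to 0.354 FPKM for C5AR1 and 0.0529 to 1.08 FPKM for C3. Near the added 0.1 FPKM the log2 scale shrinks a change, so a response there could go unseen. None of these differences passed without pairing, with pairing after median centring, or with pairing after scaling to a common sum. The cause of this dependence was not tested.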

How the results depend on the processing

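In NB4 2 of the 9 genes passed as higher. The number was 0 with no filter on low values, with TPM scaling, with median centring and with moderation without a trend. In that order these settings gave 6, 0, 0 and 3 higher among all genes, so the 0 is not particular to the 9 genes. In one fit of all 12 samples the number was 4, where 409 of all genes passed as higher. With the replicate block it was 6, where 595 of all genes passed as higher. With median centring beside the block it was 4, where 188 did. Alternatives chosen after seeing the data gave 6 without replicate 2 of both NB4 groups, with or without the block. Of all genes 624 passed as higher there with the block and 478 without it. Such alternatives also gave 5 with the block without replicate 3, where 532 of all genes passed as higher. With the block and TPM scaling the number was 6, where 310 did. Leaving out 1 replicate at a time gave 0 to 3, where 0 to 368 of all genes passed as higher.

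The number with a larger change in NB4 than in Kasumi-1 was 0, where 0 of all genes passed. With the replicate block it was 4 (CMKLR1, at 0 in Kasumi-1, among them), where 223 of all genes passed. With the block without replicate 2 of both NB4 groups it was 1, where 56 did. Between controls it was 3 higher (CR1, which entered through its NB4 level, among them) and 2 lower. It was 1 and 1 with a minimum mean of 1 FPKM, and 2 to 3 on either side with 1 replicate left out. Numbers did not pair the lines, and the block changed no call of the 9 genes there or in Kasumi-1.

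The direction turned for FPR2 without replicate 2 of both NB4 groups, with and without the block (-0.29 in NB4, -0.066 as the difference between lines), and for CFP in Kasumi-1 with median centring, with and without the block (-0.054). With 1 replicate left out, the ranges that crossed 0 in NB4 were -0.69 to 2.16 for C3, -0.47 to 0.13 for CFD and -0.31 to 0.71 for FPR2. In Kasumi-1 they were -1.08 to 0.47 for C3, -0.14 to 0.50 for C5AR1, -0.14 to 0.046 for CFD and -0.068 to 0.14 for CFP. For the difference between lines they were -0.41 to 2.44 for C3, -0.016 to 1.08 for C3AR1, -0.42 to 0.17 for CFD and -0.083 to 0.94 for FPR2. The cause was not tested.

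Over all genes, the alternatives gave 0 to 624 higher and 0 to 203 lower genes in NB4 (170 and 13 as reported), 0 to 32 and 0 to 67 in Kasumi-1 (2 and 2), 0 to 223 and 0 to 47 for the difference (0 and 0), and 2031 to 3595 and 2720 to 3776 between controls (2790 and 3659). Higher genes were 54.6% of those called between controls with TPM scaling, against 43.3%. Of 702 values for single genes and for counts over all genes, 545 kept their direction and side of the threshold or stayed within 1.5 times, 79 counts moved, 32 values came to pass, 23 ceased to pass and 23 reversed. Depth is unknown, so its limit on genes of low FPKM could not be given.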
